A study of Homo sapiens with 24 samples.

Results

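The genes described here are 10 core genes of non-homologous end joining, namely XRCC6, XRCC5, PRKDC, DCLRE1C, XRCC4, NHEJ1, PAXX, POLL, TP53BP1 and RIF1. They were taken by name, through the Gencode annotation of hg19, from the 20345 gene IDs of the count table, and LIG4 and RTEL1 were not included. RNA was sequenced from an established human melanoma line, as 12 total RNA and 12 polysomal RNA libraries. The study's methods name A2058 cells for this experiment, while its legend of the translation efficiencies names A375 cells. The sample titles name no line. The 4 conditions were transfection with a scrambled control siRNA (siCTRL) or siRNA against LSM14A (siLSM14A), without (NT) or with hydroxyurea (HU) at 10 mM for 2 h. Each condition had 3 replicates. The methods give 20 nM for each siRNA against LSM14A and no dose for the control. All conditions shared the transfection and the cycloheximide added before lysis, and polysomal RNA was the heavy end of a sucrose gradient, with total RNA as its input. The labels number the replicates without saying whether they were separate cultures, so p-values measure only the spread between these samples, which may be technical. HU blocks ribonucleotide reductase and stalls replication forks, LSM14A is an RNA-binding protein that represses translation, and the comparisons ask which mRNAs change in amount or in polysome loading with either.

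Non-homologous end joining rejoins the ends of a broken DNA molecule without a homologous template. The Ku heterodimer of Ku70 (XRCC6) and Ku80 (XRCC5) slides onto each end and recruits the kinase DNA-PKcs (PRKDC), which activates the nuclease Artemis (DCLRE1C). The scaffold XRCC4 and its structural relatives XLF (NHEJ1) and PAXX hold the ends together for ligation, DNA polymerase lambda (POLL) fills gaps, and 53BP1 (TP53BP1) with its partner RIF1 protects ends from resection and so favours this pathway over homologous recombination.

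Of the 10 genes, 9 had enough reads to be tested. None of the 9 passed an adjusted p of 0.05 in any of 15 comparisons between conditions, in total RNA, in polysomal RNA or in the ratio of both. Within each condition they differed widely in polysome loading. TP53BP1, XRCC6, PRKDC and XRCC5 passed as higher in polysomal than in total RNA and DCLRE1C as lower, both as counted and after correction for GC content. POLL and PAXX passed as higher as counted and in no condition after the correction, and XRCC4 and RIF1 passed, as higher, after the correction alone. Among all genes 63.8% to 73.5% passed between fractions, so a pass there was common.

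Because polysome loading was measured, the bases around the start codon are shown for 9 of the genes. They were read 5′ to 3′ from the hg19 genome along the canonical Gencode mRNA, the coordinate is that of the A of the ATG, and capitals mark the ATG, the base at position -3 and the base at position +4, counted from the A of the ATG as +1.
XRCC6 (chr22:42018009, plus strand): gtagccAacATGTca
XRCC5 (chr2:216974160, plus strand): accggcAacATGGtg
DCLRE1C (chr10:14996009, minus strand): ggcggcGctATGAgt
XRCC4 (chr5:82400739, plus strand): tattaaGaaATGGag
NHEJ1 (chr2:220023084, minus strand): ccgctgAcgATGGaa
PAXX (chr9:139886896, plus strand): cccggcGccATGGat
POLL (chr10:103347117, minus strand): catactTcaATGGat
TP53BP1 (chr15:43785241, minus strand): cccgccGggATGCct
RIF1 (chr2:152266938, plus strand): gtggccGacATGAcg
POLL was the one gene shown without a purine at -3. Of 18299 mRNAs with an annotated ATG start, 86.3% had A or G at -3 and 43.8% also had G at +4. Whether these bases bear on polysome loading was not tested. XRCC6 and POLL carried 1 further ATG each upstream of the start codon and the other genes shown none, against 42.7% of mRNAs with at least 1. The word AACGGAG, which was taken from earlier results of these data, had no match in the canonical mRNA of any of the 10 genes, searched on the mRNA strand. Of 18735 protein-coding genes with a 3′ UTR, 1.98% held it there, a share for the 3′ UTR alone and not for the whole mRNA. With a word this rare, no match among 10 genes says little about them.

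Total RNA libraries held 24789280 to 40645263 counts and polysomal libraries 28776634 to 44897501. LSM14A, the target of the siRNA, was measured first as a check of the labels. In total RNA it lay between 80.9 and 91.0 CPM (counts scaled to library size with TMM factors) in siCTRL libraries and between 6.14 and 8.31 CPM in siLSM14A libraries. Its fitted log2 change was -3.49 (SE 0.0750, edgeR adjusted p = 1.91e-09) in NT cells and -3.67 (SE 0.0871, edgeR adjusted p = 8.41e-11) in HU cells. The 8 melanocytic markers had medians from 7.97 CPM (MLANA) to 781 CPM (DCT) in total RNA, with SOX10 at 605 CPM. Of 5 markers of other cells, CD3E, EPCAM and PTPRC had at most 1, 3 and 10 counts in a total RNA library, while the keratin KRT14 had 36 to 107 counts (0.997 to 2.83 CPM) and the fibroblast gene DCN 33 to 75 counts (1.18 to 1.95 CPM). Libraries differed in how their counts depended on the GC content of exons. Spearman's rho across genes between GC content and a library's deviation from the mean of its fraction ran from -0.561 to 0.415 in total RNA and from -0.785 to 0.630 in polysomal RNA. The lowest polysomal values belonged to siLSM14A NT replicate 1 (-0.785), siCTRL NT replicate 3 (-0.723) and siLSM14A HU replicates 3 (-0.647) and 1 (-0.380). These trends are named again below for PRKDC, DCLRE1C and RIF1.

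Levels were compared between genes as CPM per kb of the canonical mRNA. In total RNA the Ku genes were the highest, with medians of 276 CPM per kb for XRCC6 and 139 for XRCC5 over 12 libraries, above 98.5% and 96.3% of 12339 protein-coding genes. PRKDC followed at 41.3 CPM per kb and PAXX at 36.2, and their ranges over libraries overlapped (38.0 to 49.6 against 32.5 to 42.0). TP53BP1 stood at 6.56 CPM per kb, below PAXX and above the rest without overlap. The lowest 4 were XRCC4 at 4.58, RIF1 at 3.96, POLL at 3.57 and DCLRE1C at 3.49 CPM per kb, and each overlapped its neighbour in that order. When the length of all annotated exons was used in place of the canonical mRNA, PRKDC and PAXX changed places, as did XRCC4 and RIF1. In polysomal RNA the first 5 genes kept their order. POLL rose to 6.26 CPM per kb, ahead of RIF1 at 4.59 and XRCC4 at 3.79, and DCLRE1C was again the last of the 9, at 1.09. There too PRKDC and PAXX overlapped, and POLL, RIF1, XRCC4 and DCLRE1C each overlapped the neighbour in that order. With the length of all annotated exons, RIF1 (3.71) lay ahead of POLL (3.21) in polysomal RNA. In these bulk libraries, a change in the share of cells that express a gene and a change in RNA per cell cannot be told apart.

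**Figure D1:**
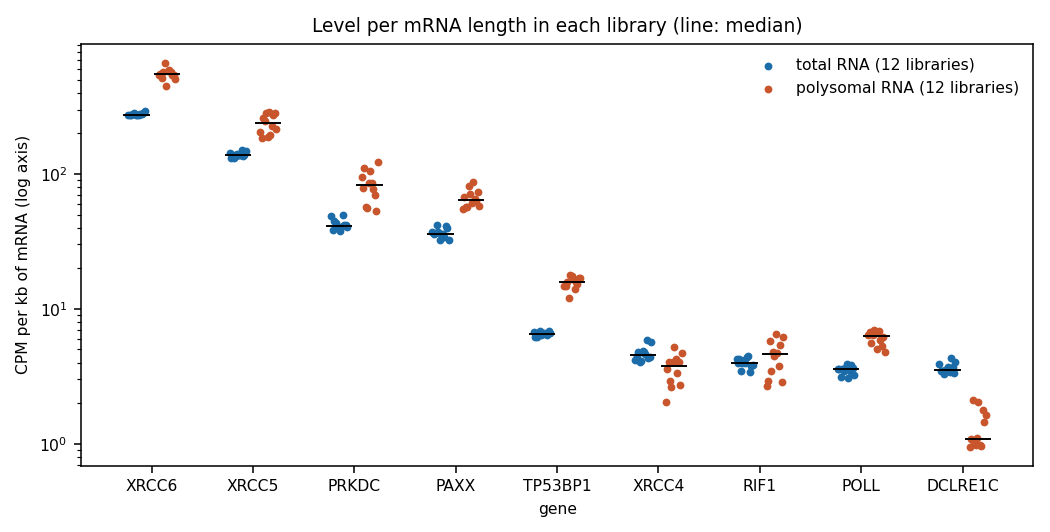
CPM per kb of canonical mRNA on a log axis for the 9 genes with enough reads, in order of their median in total RNA. Each point is a library (12 of total and 12 of polysomal RNA) and lines are medians, from 276 for XRCC6 to 3.49 for DCLRE1C in total RNA.

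Ku70 and Ku80 are obligate partners, and both mRNAs were abundant and steady. XRCC6 (ENSG00000196419, chr22:42017167-42060052, plus strand) ranged from 576 to 617 CPM over the 12 total RNA libraries, so that the highest library exceeded the lowest by a factor of 1.07. XRCC5 (ENSG00000079246, chr2:216972187-217071026, plus strand) ranged from 441 to 506 CPM. Per mRNA length, XRCC6 exceeded XRCC5 by a factor of 1.85 to 2.11 in every total RNA library. In polysomal RNA the spread was wider, 948 to 1409 CPM for XRCC6 and 628 to 975 CPM for XRCC5, and the factor ran from 1.9 to 3.02. The log2 ratio of polysomal to total CPM was above 0 in 12 of 12 replicates for both genes, at 0.70 to 1.24 for XRCC6 and 0.41 to 1.06 for XRCC5. The lowest ratio of both genes was that of siCTRL HU replicate 3. Ratios join libraries by replicate number. In siLSM14A NT the polysomal and total libraries of replicates 1 and 3 deviated from their group means in opposite directions (r across genes -0.512 and -0.325). The GC trends of replicates 1 and 3 were -0.785 and 0.148 in polysomal RNA and 0.061 and -0.561 in total RNA. Whether the ratios given for these 2 replicates join libraries of different lysates was not tested.

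PRKDC (ENSG00000253729, chr8:48685672-48872738, minus strand) encodes the kinase that Ku brings to the end. Its total RNA was 653, 519 and 599 CPM in siCTRL NT, 580, 549 and 532 in siCTRL HU, 512, 541 and 667 in siLSM14A NT, and 562, 563 and 541 in siLSM14A HU. The 4 groups overlapped. Its polysomal RNA was 1268, 1060 and 1491 CPM in siCTRL NT and 768, 758 and 1155 in siCTRL HU. In siLSM14A cells it was 1408, 1160 and 1043 CPM in NT and 946, 714 and 1648 in HU. In siCTRL cells 2 of the HU replicates lay below every NT replicate, and the other lay inside their range. The highest polysomal values were those of siLSM14A HU replicate 3, siCTRL NT replicate 3 and siLSM14A NT replicate 1. These were the libraries with the most negative GC trends, and the part of that trend in these values was not tested beyond the GC correction given below. The log2 ratio was above 0 in 12 of 12 replicates, between 0.34 and 1.61, which was among the widest spans of the genes here.

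DCLRE1C (ENSG00000152457, chr10:14939358-14996431, minus strand) encodes Artemis, the nuclease that opens hairpins and trims overhangs. Its total RNA was 23.2, 20.5 and 20.8 CPM in siCTRL NT, 19.7, 20.9 and 20.7 in siCTRL HU, 21.9, 20.2 and 25.8 in siLSM14A NT, and 22.3, 20 and 24.1 in siLSM14A HU. In polysomal RNA it was 5.67, 6.42 and 12.6 CPM in siCTRL NT and 6.12, 5.80 and 6.54 in siCTRL HU. It was 12.2, 5.79 and 5.72 CPM in siLSM14A NT and 10.7, 8.61 and 9.67 in siLSM14A HU, on 149 to 418 counts per library. The 3 siLSM14A HU replicates lay above the 3 siCTRL HU replicates without overlap, whereas each NT group had 1 high and 2 low replicates. The 2 high NT libraries, siCTRL NT replicate 3 and siLSM14A NT replicate 1, were those with the most negative GC trends named above, and the part of that trend in these values was not tested beyond the GC correction given below. The log2 ratio of polysomal to total CPM was below 0 in 12 of 12 replicates, from -2.17 to -0.73.

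The ligation scaffolds XRCC4 and PAXX were read at different depths. XRCC4 (ENSG00000152422, chr5:82373317-82649606, plus strand), the partner of the ligase, had 186 to 435 counts per total RNA library. In total RNA it was 6.66, 7.21 and 7.72 CPM in siCTRL NT, 6.45, 6.62 and 7.86 in siCTRL HU, 7.72, 7.47 and 9.44 in siLSM14A NT, and 6.87, 7.0 and 9.17 in siLSM14A HU. In polysomal RNA it ranged from 3.29 to 8.32 CPM, and its log2 ratio was below 0 in 11 of 12 replicates, between -1.02 and 0.11. PAXX (ENSG00000148362, chr9:139886874-139888436, plus strand), which binds Ku and stabilises the joined ends, ranged from 26.3 to 33.9 CPM in total and from 44.6 to 70.1 CPM in polysomal RNA. Its log2 ratio was above 0 in 12 of 12 replicates, between 0.44 and 1.27. These ratios are as counted, and the sides on which XRCC4 and PAXX lie changed with the GC correction given below.

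NHEJ1 (ENSG00000187736, chr2:219934077-220025591, minus strand), the gene of XLF, was read too rarely to be compared. It had 0, 0 and 0 counts in total RNA of siCTRL NT, 3, 4 and 2 in siCTRL HU, 2, 0 and 4 in siLSM14A NT and 0, 1 and 1 in siLSM14A HU, and at most 4 in a polysomal library. In the annotation used here all of its coding bases, and 24.3% of its canonical mRNA, also lie in exons of another protein-coding gene on the same strand (ENSG00000280537, chr2:219940051-220035549), which is not a row of the count table. Whether that overlap set the low counts was not tested, and no statement on the level of NHEJ1 is made from them.

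POLL (ENSG00000166169, chr10:103338639-103348027, minus strand), the gap-filling polymerase, ranged from 8.51 to 10.9 CPM in total and from 13.3 to 19.2 CPM in polysomal RNA. Its log2 ratio was above 0 in 12 of 12 replicates, between 0.37 and 1.16. Exons of genes on the opposite strand cover 6.90% of its canonical mRNA, and whether the counting used strand is not given in the sources used here.

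Of the genes that steer a break towards end joining, TP53BP1 (ENSG00000067369, chr15:43695259-43802926, minus strand) was the steadier. It ranged from 64.1 to 71.3 CPM in total RNA and from 125 to 184 CPM in polysomal RNA, and its log2 ratio lay between 0.86 and 1.45, above 0 in 12 of 12 replicates. Exons on the opposite strand cover 36.0% of its canonical mRNA, with the same limit as for POLL. RIF1 (ENSG00000080345, chr2:152266397-152364527, plus strand), which acts downstream of 53BP1, was 62.3, 57.8 and 61.9 CPM in total RNA of siCTRL NT and 51.1, 58.0 and 60.8 in siCTRL HU. In siLSM14A cells it was 58.1, 64.4 and 65.8 CPM in NT and 49.8, 55.5 and 56.6 in HU, so that the HU replicates lay below the NT replicates without overlap. Its polysomal RNA was 39.4, 43.1 and 85.0 CPM in siCTRL NT, 50.8, 70.5 and 65.8 in siCTRL HU, 95.5, 68.9 and 54.9 in siLSM14A NT, and 78.9, 41.9 and 90.3 in siLSM14A HU. The 4 highest values belonged to the 4 libraries with the most negative GC trends. The log2 ratio of RIF1 was above 0 in 7 replicates and below 0 in 5, between -0.66 and 0.72.

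**Figure D2:**
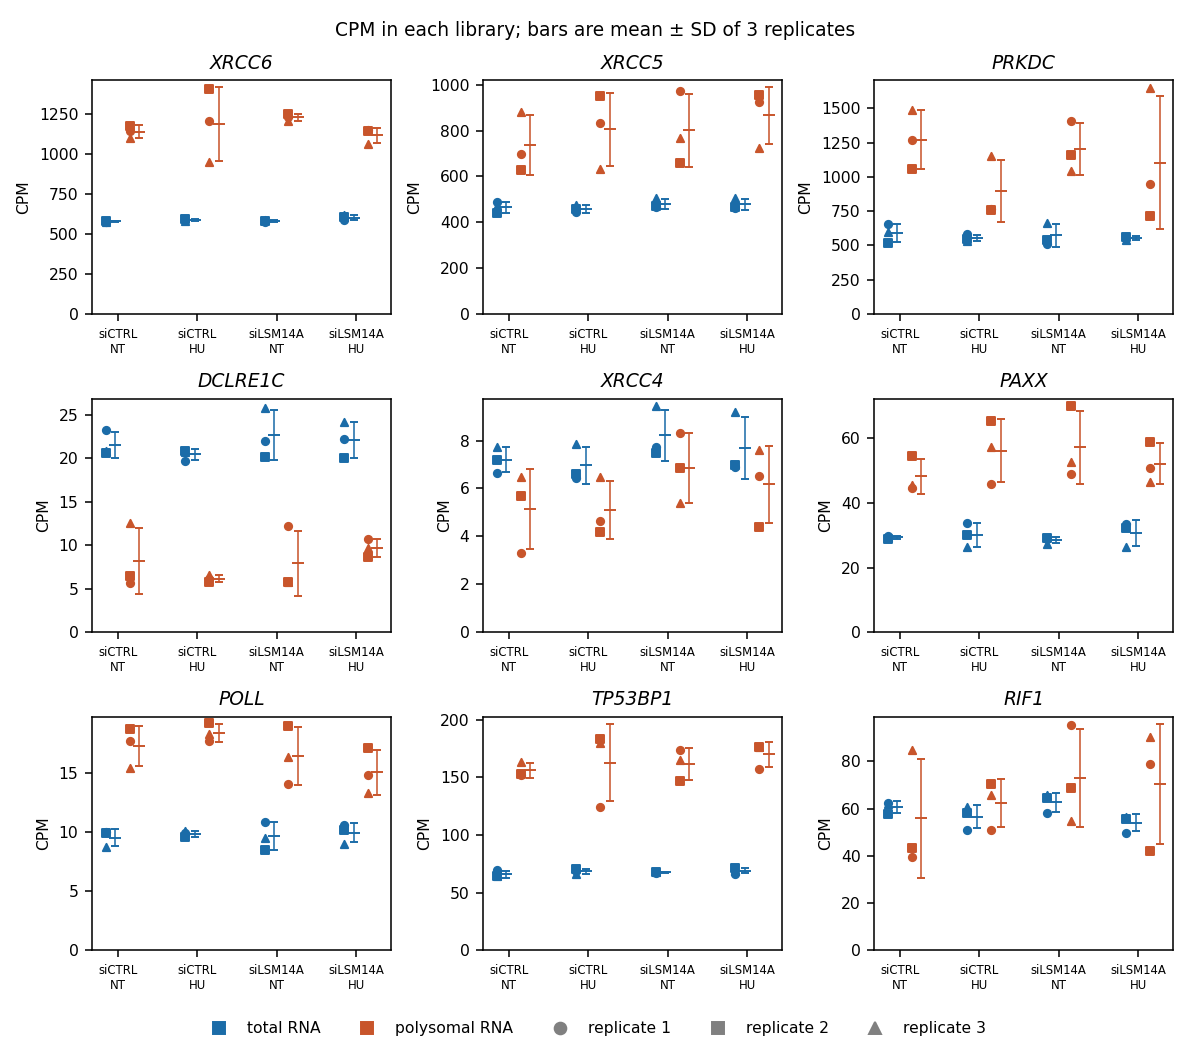
CPM of the 9 genes in each library by condition, in total (blue) and polysomal RNA (orange), with a marker for each replicate and bars for mean ± SD (n = 3); each panel has its own axis from 0. In total RNA the replicates lie close together, such as 576 to 617 CPM for XRCC6, while polysomal values spread more, such as 39.4 to 95.5 CPM for RIF1.

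**Figure D3:**
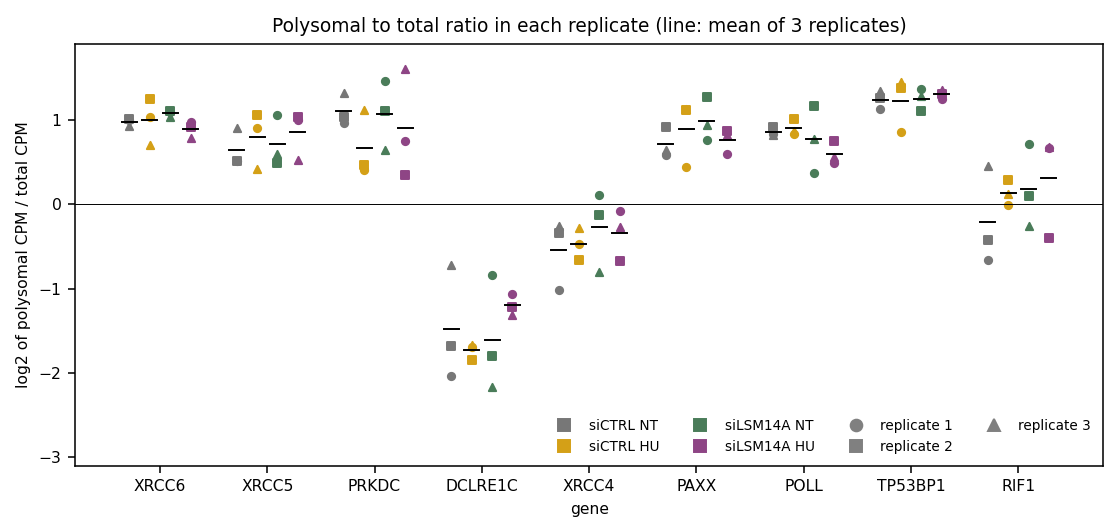
Log2 of polysomal over total CPM in each replicate of the 4 conditions (colours), with lines at the mean of 3 replicates. XRCC6, XRCC5, PRKDC, PAXX, POLL and TP53BP1 lie above 0 in 12 of 12 replicates, DCLRE1C lies below 0 in 12, and RIF1 lies on both sides.

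Knockdown of LSM14A was compared with the control siRNA in NT and in HU cells, and HU with NT in siCTRL and in siLSM14A cells. For total RNA the edgeR quasi-likelihood test gave 0 of 9 genes with an adjusted p under 0.05 in any of these 4 comparisons or in their interaction. Among all genes tested, 0.566% passed for siLSM14A against siCTRL in NT cells and 0.802% in HU cells, and 0% for HU against NT in siCTRL cells, 0% in siLSM14A cells and 0% for the interaction. The fitted log2 changes of the 9 genes lay between -0.22 and 0.19 over the 4 comparisons, with a median SE of 0.0747, and their 95% intervals between -0.40 and 0.45. For XRCC6 every 95% interval lay within -0.09 and 0.15, for XRCC5 within -0.15 and 0.17 and for TP53BP1 within -0.12 and 0.18. For these 3 genes, changes in total RNA beyond those bounds lay outside the intervals.

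RIF1 was the one gene of the 9 with an unadjusted p under 0.05 in total RNA. In siLSM14A cells its log2 change with HU was -0.22 (SE 0.0695, 95% interval -0.38 to -0.07), and it did not pass across genes (edgeR adjusted p = 0.855). Across all genes the change in that comparison ran with GC content at a Spearman's rho of 0.551. It stayed negative without each replicate in turn (-0.27 to -0.17) and was -0.13 after correction for GC content. In siCTRL cells the log2 change of RIF1 with HU was -0.09 (SE 0.0706, edgeR adjusted p = 1.00), and the interaction of HU and siRNA was -0.13 (SE 0.103, edgeR adjusted p = 1.00). The genes with the smallest p for siLSM14A against siCTRL were XRCC4 in NT cells, with a log2 change of 0.19 (SE 0.119, edgeR adjusted p = 0.624), and DCLRE1C in HU cells, with 0.11 (SE 0.0813, edgeR adjusted p = 0.797).

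In polysomal RNA, 0 of 9 genes passed in the 4 comparisons or the interaction. The shares of all genes that passed were 0.0162% for siLSM14A against siCTRL in NT cells, 0.0653% in HU cells, 0% for HU against NT in siCTRL cells, 0% in siLSM14A cells and 0% for the interaction. The log2 changes lay between -0.51 and 0.66, with a median SE of 0.188, so that changes that total RNA could have resolved were not detectable here. DCLRE1C was higher in siLSM14A HU than in siCTRL HU by 0.66 on the log2 scale (SE 0.185, 95% interval 0.26 to 1.06), with an unadjusted p under 0.05 that did not pass across genes (edgeR adjusted p = 0.739). It was 0.58 to 0.74 without each replicate in turn and 0.52 after GC correction. In 1 fit of all polysomal libraries, 0 of 9 genes had an unadjusted p under 0.05 in this comparison. Across all genes the change in that comparison ran with GC content at a Spearman's rho of -0.629. In NT cells, where each group had 1 high replicate, the change of DCLRE1C between siRNAs was -0.05 (95% interval -0.89 to 0.78; -0.52 to 0.39 without each replicate in turn), and the interaction was 0.73 (SE 0.455, edgeR adjusted p = 0.954). The log2 change of PRKDC with HU in siCTRL cells was -0.51 (SE 0.217, 95% interval -0.98 to -0.04, edgeR adjusted p = 0.933), or -0.53 with the replicate as a block (edgeR adjusted p = 0.190). It had an unadjusted p under 0.05, and was -0.76 to -0.39 without each replicate in turn and -0.39 after GC correction. With a replicate left out, the unadjusted edgeR p of PRKDC was up to 0.144. For HU in siCTRL cells, 1 fit of all polysomal libraries gave 0 of 9 genes an unadjusted p under 0.05. The change with HU in siCTRL cells ran with GC content across all genes at a Spearman's rho of 0.603. In siLSM14A cells the smallest p for HU belonged to XRCC6, at -0.14 (SE 0.130, edgeR adjusted p = 1.00), and for siLSM14A in NT cells to XRCC4, at 0.41 (SE 0.281, edgeR adjusted p = 1.00).

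The polysomal to total ratio was compared between conditions through an interaction term with the fraction, and 0 of 9 genes passed in the 4 comparisons or in the interaction of HU and siRNA. No gene of the table passed in any of the 5, that is 0% for siLSM14A in NT cells, 0% in HU cells, 0% for HU in siCTRL cells, 0% in siLSM14A cells and 0% for the interaction. The log2 changes of the ratio lay between -0.42 and 0.55 with a median SE of 0.207. DCLRE1C again had the one unadjusted p under 0.05, with a ratio higher by 0.55 on the log2 scale in siLSM14A HU than in siCTRL HU (SE 0.171, 95% interval 0.18 to 0.91, edgeR adjusted p = 0.778). Its log2 ratios were -1.06, -1.22 and -1.32 in siLSM14A HU against -1.69, -1.85 and -1.66 in siCTRL HU, without overlap, and -2.03, -1.68 and -0.73 in siCTRL NT against -0.84, -1.80 and -2.17 in siLSM14A NT, with overlap. Across genes the change of the ratio in that comparison ran with GC content at a Spearman's rho of -0.644, and the value for DCLRE1C was 0.40 (edgeR adjusted p = 1.00) after GC correction. With all libraries in 1 fit, 0 of 9 genes had an unadjusted p under 0.05 in that comparison of the ratio. The smallest p elsewhere belonged to PAXX for siLSM14A in NT cells, at 0.29 (SE 0.192, edgeR adjusted p = 1.00), PRKDC for HU in siCTRL cells, at -0.42 (SE 0.237, edgeR adjusted p = 0.956), XRCC6 for HU in siLSM14A cells, at -0.19 (SE 0.113, edgeR adjusted p = 1.00), and PAXX for the interaction, at -0.43 (SE 0.292, edgeR adjusted p = 0.896).

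**Figure D4:**
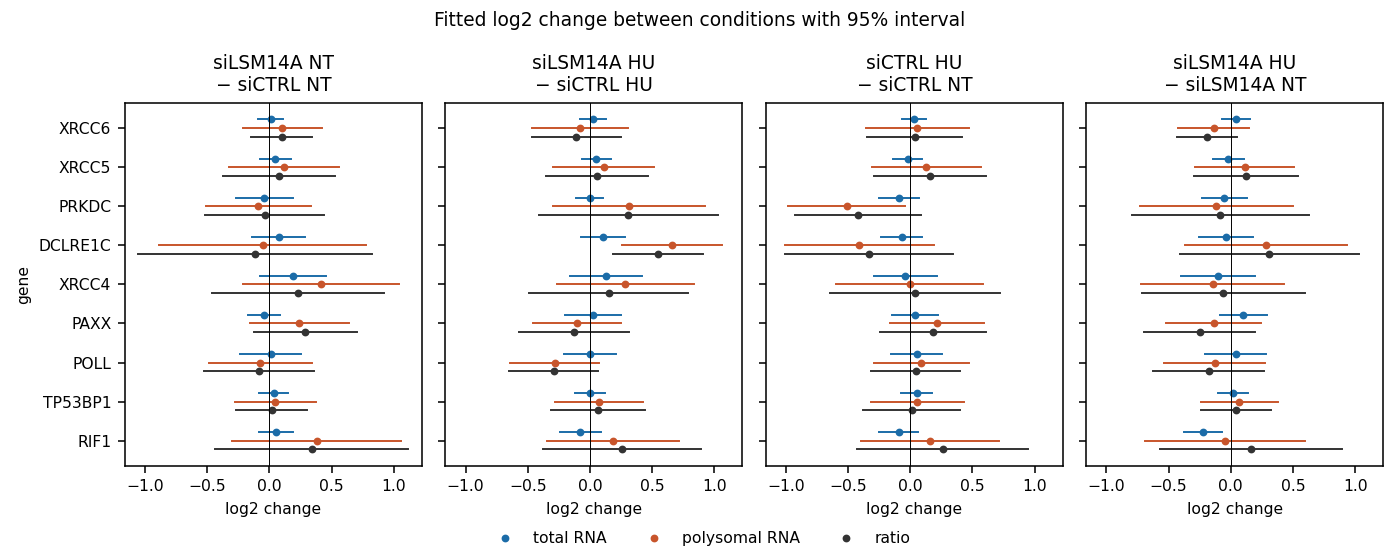
Fitted log2 change of each gene between conditions in total RNA, polysomal RNA and their ratio, with 95% intervals, for the 4 pairwise comparisons. Total RNA changes stay between -0.22 and 0.19, and the interval of DCLRE1C in polysomal RNA lies above 0 for siLSM14A HU against siCTRL HU before adjustment across genes.

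Over the 135 pairs of gene and comparison, edgeR gave 4 unadjusted p under 0.05 and DESeq2 gave 5, and neither passed any of them. The edgeR count of 4 was 1 with all libraries in 1 fit and 9 with replicate block and GC correction. Over the 15 comparisons, 0.870% to 10.8% of all genes tested had an unadjusted p under 0.05. In the 11 comparisons with no gene passing, 107 to 650 genes of the table did, or 0.870% to 5.20%. For siLSM14A HU against siCTRL HU in polysomal RNA, outside the 11, the share was 4.99%. In the same 11, DESeq2 passed 1 gene, for HU against NT in siCTRL total RNA. Same-numbered replicates deviated together in 3 comparisons, and in fits with a replicate block the genes that passed rose from 100 to 855 for siLSM14A HU against siCTRL HU in total RNA, from 0 to 15 for siCTRL HU against NT in total RNA, and from 0 to 1 in polysomal RNA. None of the 9 end joining genes was among them.

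Within each condition polysomal RNA was compared with total RNA, a comparison of each gene with the average gene, since both kinds of library were scaled to their own totals. In each of the 4 conditions 7 of 9 genes passed, 6 higher and 1 lower in polysomal RNA. Passing was common among all genes, at 63.8% in siCTRL NT, 73.5% in siCTRL HU, 64.4% in siLSM14A NT and 66.8% in siLSM14A HU. Genes passed as higher at 31.4%, 36.2%, 32.1% and 32.8% in the same order, and as lower at 32.3%, 37.4%, 32.3% and 34.1%. The share of the 9 genes that passed is therefore near that of the table as a whole. Their median log2 change was 0.72 to 0.82 over the 4 conditions, against -0.05 to -0.03 for all genes tested.

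TP53BP1 had the highest log2 changes of the 9 genes, 1.24 to 1.30 (SE 0.0878 to 0.143, edgeR adjusted p up to 0.000169), above 93.1% to 96.6% of all genes. XRCC6 followed at 0.89 to 1.10 (SE 0.0792 to 0.145, edgeR adjusted p up to 0.000264). PRKDC was higher by 0.70 to 1.11 (edgeR adjusted p up to 0.00930), PAXX by 0.72 to 1.03 (edgeR adjusted p up to 0.00130), POLL by 0.60 to 0.91 (edgeR adjusted p up to 0.00356) and XRCC5 by 0.65 to 0.86 (edgeR adjusted p up to 0.00356). DCLRE1C was lower, at -1.72 to -1.20 (SE 0.127 to 0.285, edgeR adjusted p up to 0.00274), between percentiles 3.96 and 6.59 of the changes of all genes. XRCC4 lay at -0.49 to -0.24 and missed the threshold, by little in siCTRL HU (edgeR adjusted p = 0.0510). RIF1 lay at -0.12 to 0.38 and passed in none of the 4 conditions.

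The change between fractions ran with the GC content of exons across all genes, at a Spearman's rho of 0.639 to 0.709, and the 9 genes span 35.2% GC in XRCC4 and 37.8% in RIF1 to 56.7% in POLL and 65.0% in PAXX. After a correction for GC content 7 of 9 genes passed in each condition again, but not the same ones. PAXX and POLL no longer passed in any condition, at -0.04 to 0.19 and 0.07 to 0.28. XRCC4 passed as higher in polysomal RNA in all 4, at 0.43 to 0.70, which reversed its direction. In siCTRL NT it passed by little (edgeR adjusted p = 0.0468). RIF1 passed as higher in all 4, at 0.55 to 1.04. TP53BP1 (1.43 to 1.53), PRKDC (1.20 to 1.51), XRCC5 (1.04 to 1.35) and XRCC6 (0.81 to 0.99) passed as higher and DCLRE1C (-1.13 to -0.76) passed as lower under both treatments of the data. Whether the GC trend is part of polysome loading or of the libraries was not tested.

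**Figure D5:**
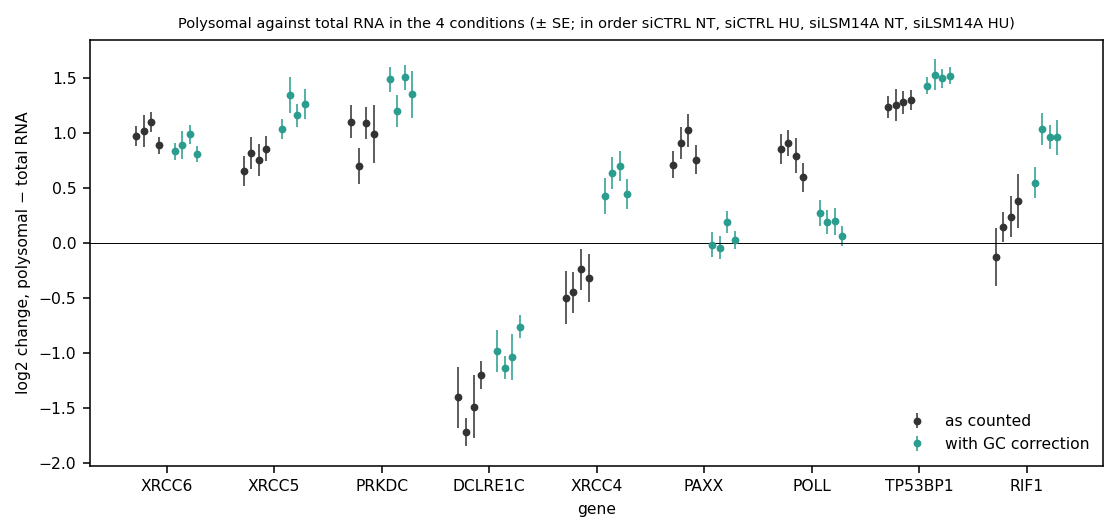
Log2 change of polysomal against total RNA (± SE) in the 4 conditions, as counted (black) and with GC correction (green). TP53BP1, XRCC6, PRKDC and XRCC5 stay above 0 and DCLRE1C below it, PAXX and POLL move to near 0, and XRCC4 moves from below to above 0.

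Leaving out 1 replicate changed 5 of the calls as counted. The fits with GC correction were not run with a replicate left out. Without siCTRL NT replicate 2, DCLRE1C did not pass in siCTRL NT (edgeR adjusted p = 0.0559), and without siLSM14A HU replicate 1, PRKDC did not pass in siLSM14A HU (edgeR adjusted p = 0.0554). RIF1 passed as lower in siCTRL NT without replicate 3 (-0.53) and as higher in siLSM14A HU without replicate 2 (0.68), and XRCC4 passed as lower in siCTRL HU without replicate 3 (-0.55).

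The wider pathway was followed in 35 further genes, of which 33 were tested, in 4 groups. These were end recognition and signalling, end processing and accessory factors, effectors of 53BP1, and alternative end joining. In total RNA, polysomal RNA and the ratio, 0 of 33 passed in any comparison between conditions. The smallest p in total RNA was that of SHLD2, a shieldin subunit, for HU in siLSM14A cells, with a log2 change of -0.23 (SE 0.0737, edgeR adjusted p = 0.855). In polysomal RNA it was that of MDC1, the adaptor on phosphorylated H2AX, for HU in siCTRL cells, at 0.53 (SE 0.197, edgeR adjusted p = 0.933), and in the ratio also that of MDC1, at 0.59 (SE 0.230, edgeR adjusted p = 0.956). For HU in siLSM14A total RNA, 6 of 33 had an unadjusted p under 0.05, against 5.20% of all genes tested. The changes of all genes there ran with GC content at a Spearman's rho of 0.551. In every other comparison between conditions 0 to 2 of 33 had an unadjusted p under 0.05.

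Between polysomal and total RNA, 11 of the 33 passed as higher and 12 as lower in all 4 conditions, and 4 (APTX, TDP1, ATM and RAD50) passed in none. In single conditions 11 or 12 passed as higher and 12 to 17 as lower, against 31.4% to 36.2% and 32.3% to 37.4% of all genes. The median log2 change of the 33 was -0.35 to -0.05, against -0.05 to -0.03 over all genes. After GC correction 7 of the 11 still passed as higher and 7 of the 12 as lower in all 4. MAD2L2, NUDT16L1, POLM and H2AX no longer passed as higher, and H2AX passed as lower in 3 conditions. PAXIP1, SHLD3, APLF, TDP2 and RNF8 no longer passed as lower in all 4, while APTX and ATM passed as higher in all 4. The ranges that follow are as counted. Among the effectors of 53BP1 tested, CTC1 (0.65 to 1.13), MAD2L2 (0.56 to 0.89), NUDT16L1 (0.90 to 1.16) and SHLD1 (0.52 to 0.80) passed as higher in each condition, while SHLD2 (-1.30 to -0.97), SHLD3 (-1.55 to -0.85), DYNLL1 (-0.57 to -0.35) and PAXIP1 (-0.47 to -0.34) passed as lower. The shieldin subunits, which act as 1 complex downstream of 53BP1 and RIF1, therefore lay on both sides, SHLD1 and SHLD2 also after GC correction. In alternative end joining, XRCC1 (1.10 to 1.53), LIG3 (0.76 to 0.98) and FEN1 (0.72 to 0.87) passed as higher, and RBBP8 (-1.81 to -1.35) and POLQ (-1.31 to -0.94) as lower. Among end processing factors, POLM (0.45 to 0.71) passed as higher, and ERCC6L2 (-1.80 to -1.37), APLF (-1.25 to -0.78) and TDP2 (-1.08 to -0.69) as lower. Among signalling genes, MDC1 (0.89 to 1.5) and H2AX (0.38 to 0.75) passed as higher, and RNF168 (-1.47 to -1.21), NBN (-1.43 to -1.11) and RNF8 (-0.72 to -0.44) as lower.

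For each of the 9 genes the 2 protein-coding genes with the highest Pearson's r of log2 CPM over the 12 total RNA libraries were listed, out of 11244 compared. These values describe libraries that share GC trends and give no test. XRCC5 was most like FERMT2 (r = 0.962) and EHBP1 (0.945), and XRCC6 most like SETBP1 (0.866) and FECH (0.842). PRKDC was most like PRRC2C (0.973) and PLEKHH2 (0.953), and DCLRE1C most like SMYD2 (0.937) and PFN2 (0.929). XRCC4 was most like RAB23 (0.919) and PIK3C2A (0.908), PAXX most like ZNF133 (0.962) and TRMT2A (0.955), and POLL most like TPRG1L (0.815) and CCND3 (0.788). TP53BP1 was most like PBDC1 (0.885) and FNBP1 (0.809), and RIF1 most like MKLN1 (0.968) and RMI1 (0.932). Among the 9 genes themselves, r ran from -0.775 between XRCC4 and PAXX to 0.814 between XRCC5 and DCLRE1C.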

How the data were processed

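Polyadenylated total and heavy-polysome RNA of the melanoma cells was sequenced by the authors as stranded paired-end reads. Reads were trimmed, aligned to hg19 with STAR 2.6.1a and counted on Gencode genes. The deposited values are raw counts per gene, used here as deposited. Of 20345 gene IDs, 19637 were in the annotation used here (Gencode release 44 lifted to hg19), 19086 of them protein-coding. IDs outside it (708) and other gene types (551) stayed out of the tests.

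Samples were grouped by title. Tests used edgeR 4.0.16 in R 4.3.3 (quasi-likelihood, TMM, filterByExpr with a minimum count of 10 and a total of 15, protein-coding genes, two-sided, Benjamini-Hochberg over all genes of a comparison). The ratio was the interaction of fraction and condition, in place of Xtail. Scripts were tested on simulated data. Alternatives were DESeq2 1.42.0, RLE factors, all genes, no filter, at least 10 counts in every library, a loess GC correction (span 0.3), blocks, 1 fit for all libraries and each replicate left out.

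The genes, lists and tests were chosen with earlier results of these data known. All 10 members are described. Test values are given for members with an adjusted or unadjusted p under 0.05, or else for the member with the smallest p. For the pathway lists they are given between fractions, as ranges, for genes that passed in the same direction in all 4 conditions. Between conditions only the list gene with the smallest p in total RNA, in polysomal RNA and in the ratio is given. Other list genes also had an unadjusted p under 0.05 there, such as H2AX, ATM and MRE11. The values of 1 listed gene are not reported here. Over 24 replicate pairs the chi-square per gene was 6.20 to 125, above what counting error alone gives in each. Replicate numbers were taken to pair samples where all 3 same-numbered deviations correlated above 0.1, which held for siLSM14A HU with siCTRL HU (0.276 to 0.578) and siCTRL HU with NT (0.307 to 0.466) in total RNA, and for siCTRL HU with NT in polysomal RNA (0.317 to 0.594). Between the fractions of a condition it held for siLSM14A HU alone (0.262 to 0.442). In siLSM14A NT replicates 1 and 3 correlated negatively (-0.512 and -0.325). The labels do not state that both fractions of a number came from 1 lysate, so per-replicate ratios rest on the numbers, and fits between fractions do not.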

Additional observations from a re-analysis of the deposited data

How the results depend on the processing

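The count of end joining genes that passed between conditions was 0 in total RNA, polysomal RNA and the ratio, under each alternative and without each replicate in turn. Between fractions 28 pairs of gene and condition passed, against 28 to 30 under the alternatives and 27 to 29 without each replicate in turn. In the replicate block fits 30 passed, the 2 added being XRCC4 as lower in siCTRL NT (edgeR adjusted p = 0.0403) and siCTRL HU (edgeR adjusted p = 0.0251), where the numbers did not pair the fractions by the rule used (correlations of 0.0811 to 0.314), and no other call of the 9 genes changed. The alternatives were run on 52 fitted values of the 9 genes, which are the 36 between fractions and 16 between conditions. Of 695 alternative values, 648 kept their direction and side of the threshold, 14 no longer passed, 13 newly passed and 20 changed sign. With the GC correction, and with block and GC correction, XRCC4 turned in siCTRL NT (0.43 and 0.42), siCTRL HU (0.64 and 0.64), siLSM14A NT (0.70 and 0.70) and siLSM14A HU (0.45 and 0.45). With the same 2 settings RIF1 turned in siCTRL NT (0.55 and 0.53), and PAXX in siCTRL HU (-0.040 and -0.041) and siCTRL NT (-0.013 and -0.019). With each replicate left out in turn, RIF1 ran from -0.53 to 0.095 in siCTRL NT (turning without replicate 1) and from -0.073 to 0.44 in siLSM14A NT (turning without replicate 1), XRCC4 from -0.47 to 0.015 in siLSM14A NT (turning without replicate 3), and DCLRE1C in polysomal RNA for siLSM14A in NT cells from -0.52 to 0.39 (turning without siLSM14A NT replicate 2 or 3 or siCTRL NT replicate 3). The pathway genes were run between fractions with the GC correction and the block only. With the block 10 of 33 passed as higher and 12 as lower in all 4 conditions. The count of all genes that passed in total RNA for siLSM14A against siCTRL was 71 in NT and 100 in HU cells, against 200 and 189 with DESeq2, 119 and 159 with GC correction, 131 and 127 in 1 fit of all libraries, 45 and 855 with the replicate block, and 58 and 645 with block and GC correction. In polysomal RNA it was 8 in HU cells, against 22 with DESeq2, 40 with the block and 17 with block and GC correction, and 2 in NT cells, against 8, 2 and 2, and 5 with GC correction, 4 with no filter and 7 in 1 fit. With the block, 15 genes passed for HU in siCTRL total RNA (26 with GC correction too) and 1 in polysomal RNA, against 0. Replicate numbers did not pair polysomal siLSM14A HU with siCTRL HU by the rule used, and DCLRE1C did not pass there with the block (edgeR adjusted p = 0.0928). Depth limits XRCC4 (120 to 435 counts per library), DCLRE1C in polysomal RNA (149 to 418) and NHEJ1 (0 to 4).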
